A study of Homo sapiens with 6 samples.

Results

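The 5 genes described here, MSMO1, INSIG1, DHCR7, ACAT2 and SCD, belong to cholesterol and fatty acid synthesis or to its control. They were taken by symbol, with every probe set that carries the symbol in the platform annotation, which gave 6 probe sets (1 per gene and 2 for SCD) out of 53617 probe sets and 14884 named genes. They had been picked because they lay on opposite sides in the comparison of exposed with unexposed cells, so their differences in that comparison are described without a test. The arrays held total RNA of the human glioblastoma line U-87 MG, an established cell line, with 3 exposed and 3 unexposed arrays that the labels call biological replicates. Exposed dishes spent 54 h without interruption, from 24 h after seeding, in a box inside a Faraday chamber under electromagnetic fields directed at CHI3L1, HSP70, miR-381 and a mutated alpha-kinase 2 gene. Unexposed dishes were kept in a box outside the chamber, so the field cannot be told apart from the chamber or from the separate box. Both groups grew in medium with 10% fetal bovine serum, which itself supplies cholesterol and fatty acids. Groups were taken from the sample titles, since 1 label field calls the exposed cells both exposed and control. The comparison asks how transcripts differed after exposure.

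Animal cells make cholesterol from acetyl-CoA through mevalonate, squalene and lanosterol, and make fatty acids from the same acetyl-CoA. Both pathways are switched on by the sterol regulatory element-binding proteins (SREBPs), transcription factors that are held in the endoplasmic reticulum by SCAP and the INSIG proteins when sterols are plentiful and are released, cut and sent to the nucleus when sterols run low. SREBF2 encodes the form that favours sterol genes and SREBF1 the forms that favour fatty acid genes. Glioblastoma cells are known to depend on this system for membrane lipids. ACAT2 here is the cytosolic acetyl-CoA acetyltransferase that joins acetyl-CoA units ahead of mevalonate, and not the sterol acyltransferase SOAT2, which was once known by the same name. MSMO1 removes methyl groups from an intermediate after lanosterol, and DHCR7 carries out the reduction that ends one branch of the pathway with cholesterol. SCD puts a double bond into saturated fatty acids. INSIG1 is itself a target of the SREBPs as well as a brake on them.

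The stretches upstream of the transcription starts are shown because these genes share the SREBPs as regulators and yet lay on opposite sides. SREBPs act on DNA together with NF-Y, which recognises the CCAAT box, and with SP1, which recognises the GC box, searched here as GGGCGG. They bind the sterol regulatory element, searched here in the form TCACNCCAC, and can also bind the palindromic E-box, whose letters are CACGTG. RefSeq promoter windows of build GRCh38.p14 were at hand for 4 of the 5 genes (ACAT2 is not shown), and the 250 bases before each start are given 5′ to 3′. Capitals mark matches to any of these motifs on either strand. The motifs do not overlap one another here, while GC boxes that follow each other closely can share a base.
MSMO1, chr4:165327419-165327668, plus strand: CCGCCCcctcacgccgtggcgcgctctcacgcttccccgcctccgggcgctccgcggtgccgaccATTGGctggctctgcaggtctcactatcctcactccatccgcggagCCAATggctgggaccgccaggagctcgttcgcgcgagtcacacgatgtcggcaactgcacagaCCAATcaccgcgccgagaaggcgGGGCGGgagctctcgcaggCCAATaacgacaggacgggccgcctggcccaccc
SCD, chr10:100346983-100347232, plus strand: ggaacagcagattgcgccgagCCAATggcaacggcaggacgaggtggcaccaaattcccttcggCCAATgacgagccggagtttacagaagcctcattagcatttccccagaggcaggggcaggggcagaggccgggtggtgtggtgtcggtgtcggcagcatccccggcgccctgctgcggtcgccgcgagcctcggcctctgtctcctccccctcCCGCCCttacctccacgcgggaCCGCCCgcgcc
DHCR7 inner start, chr11:71448394-71448643, minus strand: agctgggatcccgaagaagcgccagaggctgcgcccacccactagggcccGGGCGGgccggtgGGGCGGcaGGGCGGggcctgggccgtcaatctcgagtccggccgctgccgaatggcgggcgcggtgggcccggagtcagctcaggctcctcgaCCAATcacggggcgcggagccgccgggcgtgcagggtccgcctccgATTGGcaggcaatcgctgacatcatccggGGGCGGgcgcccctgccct
INSIG1, chr7:155297628-155297877, plus strand: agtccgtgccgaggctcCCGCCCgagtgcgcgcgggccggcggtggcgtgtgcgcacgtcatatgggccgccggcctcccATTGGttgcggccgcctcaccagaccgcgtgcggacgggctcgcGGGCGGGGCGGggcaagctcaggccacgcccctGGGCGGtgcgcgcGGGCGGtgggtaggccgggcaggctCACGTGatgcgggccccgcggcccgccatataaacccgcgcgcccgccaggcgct
MSMO1 had 4 CCAAT boxes, SCD and the inner start of DHCR7 had 2 each, and INSIG1 had 1. The window at the outer start of DHCR7, not printed, held 0 matches to any of these motifs. Of 35116 windows of this length, 32.0% held a CCAAT box, 9.5% held at least 2 and 0.9% at least 4. The E-box of INSIG1, 55 bases before its start, had no counterpart in the other windows, and 6.3% of all windows held one. GC boxes numbered 5 for INSIG1, 4 for the inner DHCR7 start and 2 each for MSMO1 and SCD, against 42.6% of windows with at least 1, 24.3% with at least 2 and 7.6% with at least 4. The sterol regulatory element as spelled here matched in 0 of these windows and in 0.9% of all windows. A match is a run of letters, not a shown binding site, and other spellings or positions were not searched. With ACAT2 not shown, INSIG1 alone stood for the lower side, and a link of these motifs to direction was not tested.

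**Figure D1:**
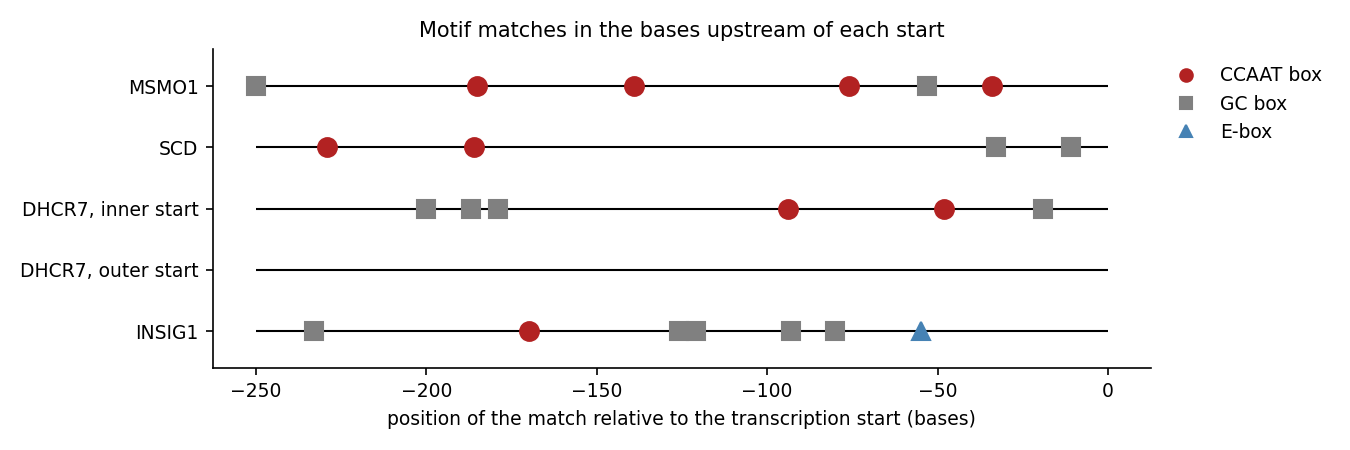
Positions of motif matches in the 250 bases before the start of each gene, with the start at 0 and each match drawn at its first base. Circles are CCAAT boxes, squares GC boxes and triangles E-boxes. MSMO1 has 4 CCAAT boxes and INSIG1 has 1, along with the E-box, while the outer DHCR7 window is empty.

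All values below are log2 expression per probe set, on which a difference of 1 is a doubling, and differences are exposed minus unexposed with the standard error (SE) of the limma fit. Such values do not tell fewer cells with a transcript from less of it per cell, and they set no gene's amount against another gene's. Array medians were 3.96 to 3.99, and correlations over all probe sets were 0.985 to 0.988 within groups and 0.982 to 0.987 between them. Unexposed replicate 2 lay farthest out on the first principal component (28.0% of the variance) at -47.2, so the 5 genes are also given without it. The other unexposed arrays were at -15.3 and -22.2 there and the exposed arrays at 19.1 to 39.3. On the second component (20.5%) unexposed replicate 1 lay farthest out at 53.1, beside -32.5 for unexposed replicate 2 and -11.1 to 2.58 for the others. Of 28 marker genes of glioma and other cell types 18 were measured. Of these 0 passed limma's Benjamini-Hochberg adjusted p of 0.05, where 3.06% of all genes passed. An unadjusted p under 0.05 was found for 3 of the 18, where 18.9% of all genes had one. The glioma list had 6 measured genes, VIM, CD44, FN1, TNC, NES and CHI3L1. Its level, as their mean, was 9.73 to 9.81 on exposed and 9.82 to 9.87 on unexposed arrays. CHI3L1, to which a field was directed, had a positive difference of 0.14 (SE 0.08, limma adjusted p = 0.430). The other measured genes of this list had negative differences, from -0.17 for FN1 to -0.06 for VIM. The list means were 3.63 to 3.93 on exposed and 3.68 to 3.91 on unexposed arrays for astrocyte markers, and 4.73 to 4.80 and 4.55 to 4.77 for neuronal markers. They were 7.23 to 7.28 and 7.05 to 7.27 for microglial or leukocyte markers, and 5.46 to 5.60 and 5.40 to 5.49 for epithelial markers. CD68 lifted the microglial or leukocyte mean, with group means of 12.3 exposed and 12.2 unexposed. CX3CR1 was at 3.70 and 3.66, and CSF1R at 5.77 and 5.57. GFAP, the astrocyte marker, stood at 5.05 to 5.31 on exposed and 4.79 to 4.93 on unexposed arrays, S100B from the same list on the other side at 3.07 to 3.37 and 3.38 to 3.87, the neuronal gene STMN2 at 4.07 to 4.19 and 3.70 to 4.16, and the leukocyte marker PTPRC was not analysed here. The part of these levels in the differences below was not tested.

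Exposed cells had higher MSMO1, SCD and DHCR7 and lower INSIG1 and ACAT2 than unexposed cells. The sterol enzyme ACAT2 lay on the side of the INSIG1 brake and opposite to the other enzymes, a parting for which the genes were chosen. The differences lay between 0.36 and 0.69 upward and between -0.43 and -0.41 downward, at most 1.61-fold. For each of the 5 genes the 3 exposed values lay wholly on one side of the 3 unexposed values, where 27.0% of all genes had groups that did not overlap. Of the 5 genes, 3 (MSMO1, SCD and INSIG1) lay past limma's threshold, beside 3.06% of all genes (1.40% higher and 1.67% lower). Because this comparison chose them, nothing is read from either count. The count of 3 ran from 0 to 5 over the alternatives: it was 0 with the replicate number as a block, without a variance trend, and without exposed replicate 1 or 2 or unexposed replicate 2 or 3, and 5 over brighter or averaged probe sets.

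Among the enzymes, ACAT2, at the entrance to the pathway, read 6.63, 6.78 and 6.53 on unexposed replicates 1 to 3 and 6.27, 6.23 and 6.20 on exposed replicates 1 to 3. The exposed arrays sat close together below all unexposed ones, and unexposed replicate 2 was the highest. The mean went from 6.65 ± 0.13 to 6.23 ± 0.04 (SD, n = 3 each), a difference of -0.41 (SE 0.09) or 1.33-fold lower, and -0.35 without unexposed replicate 2. In the RefSeq gene table ACAT2 overlaps TCP1 at one end and SOD2 at the other, and neither neighbour was analysed here. ACAT2 also overlaps SOD2-OT1, INSIG1 overlaps INSIG1-DT and LOC105375592, and DHCR7 overlaps DHCR7-DT, none of them analysed here.

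MSMO1, further down the same pathway, read 8.19, 8.29 and 8.29 on the unexposed arrays and 8.91, 9.08 and 8.84 on the exposed arrays. All 3 exposed values were above the unexposed ones, with 0.55 between the nearest arrays of the 2 groups. This was the widest such gap among the 6 probe sets. The mean went from 8.25 ± 0.06 to 8.94 ± 0.12 (SD, n = 3 each), a difference of 0.69 (SE 0.08) or 1.61-fold (0.70 without unexposed replicate 2). A larger positive difference was found for 71 of 14884 genes.

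DHCR7, which reduces 7-dehydrocholesterol to cholesterol, read 7.74, 7.59 and 7.70 on unexposed arrays and 8.06, 8.13 and 7.91 on exposed arrays. Its nearest arrays, unexposed replicate 1 and exposed replicate 3, were 0.17 apart, the narrowest gap of the 6 probe sets. The mean went from 7.67 ± 0.07 to 8.03 ± 0.12 (SD, n = 3 each), a difference of 0.36 (SE 0.08) or 1.28-fold, and 0.32 without unexposed replicate 2. Larger differences in either direction were found for 9.61% of genes, against 0.880% for MSMO1.

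SCD, the desaturase of the fatty acid branch, read 9.13, 8.74 and 9.05 on unexposed arrays and 9.64, 9.70 and 9.56 on exposed arrays in probe set 16708249. The exposed arrays were close together and the unexposed group was stretched by replicate 2, its lowest. The mean went from 8.97 ± 0.20 to 9.63 ± 0.07 (SD, n = 3 each), a difference of 0.66 (SE 0.10) or 1.58-fold, and 0.54 without unexposed replicate 2. The second SCD probe set, 16717557, read 3.95, 3.76 and 4.02 on unexposed and 4.40, 4.69 and 4.26 on exposed arrays. It was dim, near the array medians, and lay on the same side, with a difference of 0.54 (SE 0.15).

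INSIG1, the brake, read 9.14, 9.22 and 9.10 on unexposed arrays and 8.64, 8.66 and 8.88 on exposed arrays. Exposed replicate 3 was the one nearest the unexposed group, 0.22 below its lowest array. The mean went from 9.15 ± 0.06 to 8.73 ± 0.14 (SD, n = 3 each), a difference of -0.43 (SE 0.08) or 1.35-fold lower, and -0.40 without unexposed replicate 2.

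**Figure D2:**
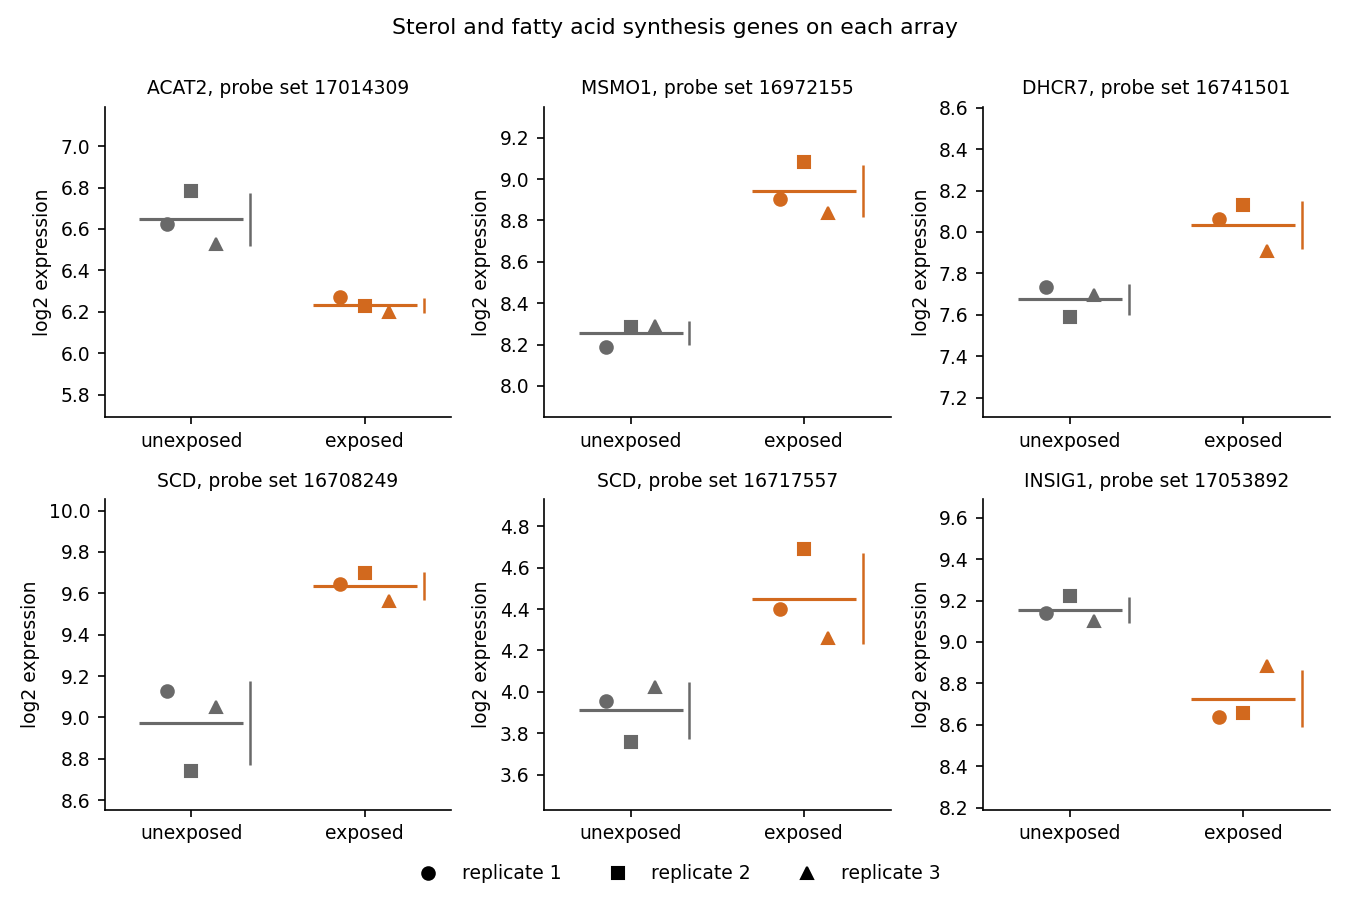
Log2 expression of the 6 probe sets on each array, unexposed in grey and exposed in orange, with marker shapes for replicates 1 to 3, horizontal lines for group means and vertical lines for ± SD (n = 3). Every panel spans the same range of log2 units. ACAT2 and INSIG1 are lower on all 3 exposed arrays, while MSMO1, DHCR7 and both SCD probe sets are higher on all 3.

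Relative to each gene's unexposed mean, the average of MSMO1, DHCR7 and SCD minus the average of INSIG1 and ACAT2 was 1.02, 1.13 and 0.83 on exposed replicates 1 to 3 and 0.07, -0.20 and 0.13 on unexposed replicates 1 to 3. Exposed replicate 3 had the smallest parting and exposed replicate 2 the largest. Exposed replicate 3 was the exposed array nearest the unexposed group for MSMO1, DHCR7, SCD (in both probe sets) and INSIG1, whereas for ACAT2 it was the one farthest away. Unexposed replicate 2 was the lowest unexposed array for SCD and DHCR7 and the highest for ACAT2 and INSIG1. When single arrays were dropped the differences ran from 0.62 to 0.74 for MSMO1, 0.54 to 0.74 for SCD, 0.31 to 0.42 for DHCR7, -0.51 to -0.38 for INSIG1 and -0.47 to -0.35 for ACAT2. Groups that do not overlap keep their sign whichever array is dropped, so these ranges show only the size of the shift.

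**Figure D3:**
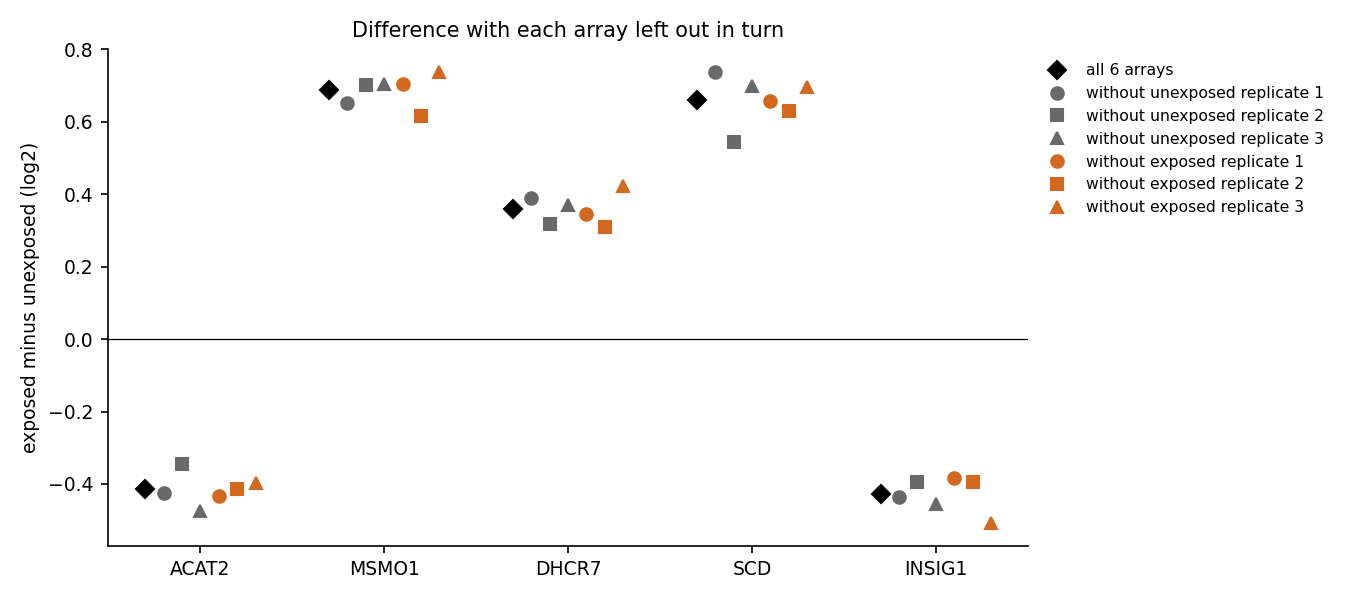
Exposed minus unexposed difference in log2 units of each gene with all 6 arrays (diamonds) and with 1 array left out, grey where an unexposed and orange where an exposed array was dropped. MSMO1, DHCR7 and SCD stay above 0 and ACAT2 and INSIG1 below it in each setting, as groups without overlap must; SCD is lowest, at 0.54, without unexposed replicate 2.

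Profiles over the 6 arrays, each centred on its gene's own mean, were set against each other by the root mean square difference per array. INSIG1 and ACAT2 were 0.11 apart, MSMO1 and SCD 0.15, SCD and DHCR7 0.17, and MSMO1 and DHCR7 0.18, while pairs from opposite sides were 0.41 to 0.58 apart. The choice of genes from both sides of this comparison fixed that order of near and far pairs. Among all named genes, those nearest to MSMO1 were NDNF (0.06), MPDZ (0.07) and the haem oxygenase HMOX1 (0.07). Nearest to SCD were AASS, an enzyme of lysine breakdown (0.04), CHID1 (0.05) and ELMO2 (0.05), and nearest to DHCR7 were the homeobox gene DLX5 (0.02), TCP11L2 (0.03) and SAMHD1 (0.03), which degrades deoxynucleotides. On the lower side, INSIG1 lay nearest to ATL3, a GTPase that shapes the endoplasmic reticulum (0.03), TSPAN17 (0.03) and WLS, the carrier of Wnt proteins (0.04). ACAT2 lay nearest to DBNDD1 (0.03), the kinesin KIFC3 (0.04) and KBTBD2 (0.04). None of these nearest genes belongs to the lipid lists described next. Those lists hold only 97 of the 14884 genes, so nothing is read from this.

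Other genes of sterol synthesis had values on both sides of 0. Of 21 listed genes 14 were measured, and the others were not analysed here. Of the 14, 0 passed limma with Benjamini-Hochberg adjustment over all genes. An unadjusted p under 0.05 was found for 4 (28.6% of them, against 18.9% of all genes). The groups of 4 of the 14 did not overlap (28.6%, against 27.0% of all genes), 1 higher and 3 lower. There were 6 positive and 8 negative values, with a median of -0.00496 against 0.00288 over all genes. EBP, the isomerase that acts after MSMO1 and before DHCR7, read 7.69, 8.18 and 7.98 on unexposed and 7.39, 7.32 and 7.54 on exposed arrays. Every exposed array was below every unexposed one, on the side opposite to both of those genes. Its difference was -0.53 (SE 0.13, interval -0.82 to -0.24, limma adjusted p = 0.0675) and -0.42 without unexposed replicate 2. ERG28, a scaffold for the demethylation step that MSMO1 begins, stood at 0.25 (SE 0.06, limma adjusted p = 0.0781). IDI1 and IDI2, isomerases of the isoprenoid unit, stood at 0.16 and -0.41 (limma adjusted p = 0.398 and 0.153). The IDI2 probe set was dim, at 3.37 to 3.43 on unexposed and 2.86 to 3.12 on exposed arrays, below the array medians. HMGCS1, which makes HMG-CoA from the product of ACAT2, stood at -0.18 with an interval of -0.45 to 0.08 (-0.10 without unexposed replicate 2 and -0.28 without unexposed replicate 1), and SQLE, the squalene epoxidase, at 0.04 with an interval of -0.15 to 0.22.

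In fatty acid synthesis 26 of 35 listed genes were measured and 0 passed limma, while 5 had an unadjusted p under 0.05, where 18.9% of all genes did. Groups did not overlap for 10 of the 26, 7 higher and 3 lower, or 38.5% against 27.0% of all genes, and the median was 0.05. SCD5, the other human stearoyl-CoA desaturase, read 7.27, 7.18 and 7.23 on unexposed and 7.47, 7.54 and 7.33 on exposed arrays. It lay on the same side as SCD at 0.22 (SE 0.08, interval 0.04 to 0.41, limma adjusted p = 0.171). The elongase ELOVL3 stood at 0.37, while MID1IP1, an activator of acetyl-CoA carboxylase, stood at -0.22 (-0.00232 with its probe sets averaged) and the acyl-CoA synthetase ACSL1 at -0.15, with limma adjusted p of 0.119 to 0.265. FASN, the fatty acid synthase itself, stood at -0.10 with an interval of -0.31 to 0.12, and 0.00390 without exposed replicate 3.

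Among genes that control the SREBPs, 12 of 20 were measured, 0 passed limma and 4 had an unadjusted p under 0.05, 2 in each direction, where 18.9% of all genes did. Groups did not overlap for 7 of the 12, or 58.3% against 27.0% of all genes, 4 higher and 3 lower. As this list and the other lipid lists were chosen with earlier results of these data known, nothing is read from such shares. SREBF2 read 7.13, 6.92 and 7.03 on unexposed and 7.34, 7.58 and 7.36 on exposed arrays, so that every exposed array was the higher. Its difference was 0.40 (SE 0.09, interval 0.19 to 0.62, limma adjusted p = 0.0624) and 0.35 without unexposed replicate 2. SREBF1 stood at -0.02 with an interval of -0.22 to 0.19, a sign that turned to 0.06 with arrays centred on ribosomal protein genes. INSIG2, the second INSIG gene, read 6.86, 6.83 and 7.00 on unexposed and 7.10, 7.19 and 7.13 on exposed arrays. It lay opposite to INSIG1, at 0.24 (SE 0.08, interval 0.06 to 0.42, limma adjusted p = 0.140). SCAP, the escort of the SREBPs, stood at -0.07 (0.01 with the ribosomal centring), SP1 at -0.14 and RNF139, a ubiquitin ligase of the endoplasmic reticulum, at -0.20 (limma adjusted p = 0.196 and 0.257 for the last pair). SREBF2 and EBP passed over probe sets above the median level (limma adjusted p = 0.0413 and 0.0465) and with averaged probe sets (0.0190 and 0.0166). In those settings 753 and 1173 of all genes passed, against 456. Neither gene passed with the replicate block (limma adjusted p = 0.182 and 0.152) or without a variance trend (0.195 and 0.194). With an array left out, limma adjusted p was 0.0746 to 0.183 for SREBF2 and 0.0523 to 0.209 for EBP.

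**Figure D4:**
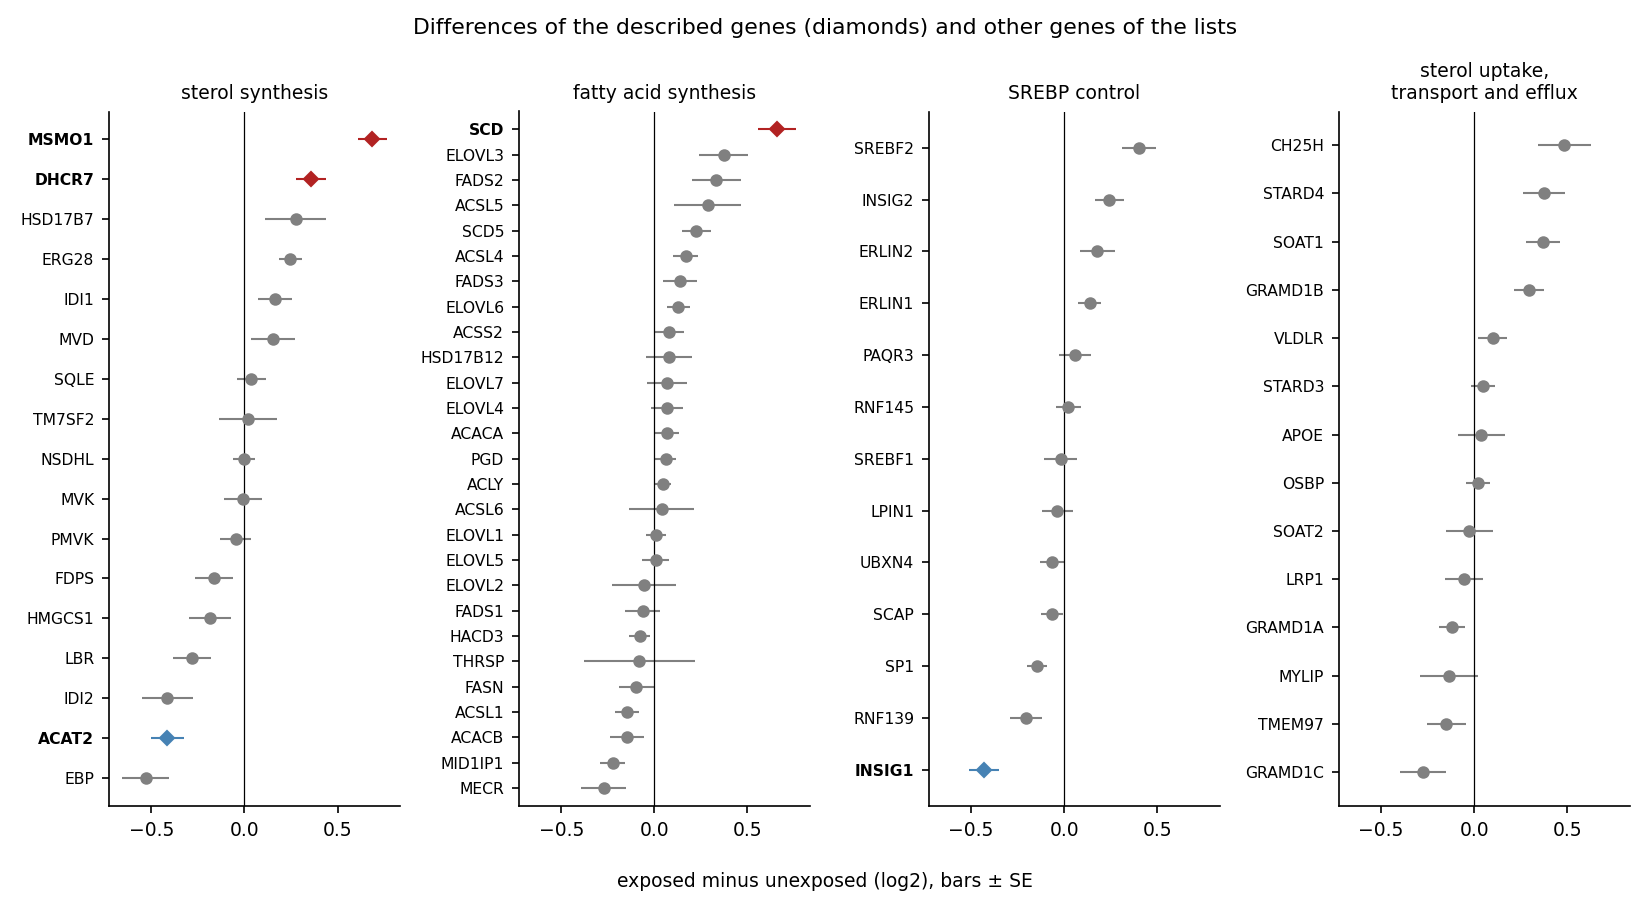
Exposed minus unexposed difference in log2 units (± SE) of every measured gene in the lists of sterol synthesis, fatty acid synthesis, SREBP control, and sterol uptake, transport and efflux. Diamonds mark MSMO1, DHCR7, ACAT2, SCD and INSIG1, placed by role; circles are the other genes, 0 of which passed in these lists. EBP is the lowest of the sterol synthesis genes at -0.53 and SREBF2 the highest of the control genes at 0.40.

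Introns of the SREBP genes carry the microRNAs miR-33a (SREBF2) and miR-33b (SREBF1), known repressors of cholesterol export. They were added after the lists and values were known. Both mature 5p forms are shown because they share 1 seed, bases 2 to 8, in capitals (RefSeq, GRCh38.p14).
hsa-miR-33a-5p, chr22:41900949-41900969, plus strand: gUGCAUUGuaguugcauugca
hsa-miR-33b-5p, chr17:17813897-17813916, minus strand: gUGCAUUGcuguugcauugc
The probe set named for MIR33A was dim, at 2.21, 2.18 and 2.15 on unexposed and 1.97, 2.18 and 1.90 on exposed arrays, with a difference of -0.16 (SE 0.14, limma adjusted p = 0.601). That for MIR33B read 5.83, 5.56 and 5.95 on unexposed and 6.10, 6.05 and 5.99 on exposed arrays, a difference of 0.26 (SE 0.11, limma adjusted p = 0.264). The groups overlapped for MIR33A and not for MIR33B, and neither passed. These probe sets do not tell a mature microRNA from its precursor or host transcript.

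For sterol uptake, transport and efflux 14 of 31 listed genes were measured, and the other 17 were not analysed here. None of the 14 passed limma, and 4 had an unadjusted p under 0.05, all 4 of them with positive values, where 18.9% of all genes did in either direction. Groups did not overlap for 5 of the 14 (35.7%, against 27.0% of all genes), 4 higher and 1 lower. SOAT1, which esterifies cholesterol for storage, read 9.07, 8.81 and 8.97 on unexposed and 9.46, 9.20 and 9.29 on exposed arrays. That is a difference of 0.37 (SE 0.09, limma adjusted p = 0.0758), above on each exposed array. GRAMD1B, which carries cholesterol from the plasma membrane to the endoplasmic reticulum, stood at 0.30 and its relatives GRAMD1C and GRAMD1A at -0.28 and -0.12 (limma adjusted p = 0.0963, 0.276 and 0.426), the last -0.07 without unexposed replicate 2. SOAT2, the old namesake of ACAT2, stood at -0.03 with an interval of -0.32 to 0.26 and turned to 0.05 with the ribosomal centring.

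Downstream of synthesis, 1 of 18 measured glycerolipid and lipid droplet genes (of 29 listed) and 1 of 13 measured fatty acid oxidation genes (of 30 listed) passed limma, both upward, and 1.40% of all genes passed upward. By unadjusted p under 0.05 the glycerolipid list had 1 higher and 4 lower genes, where 18.9% of all genes passed in either direction. By groups without overlap it had 2 higher and 5 lower (38.9%, against 27.0% of all genes). ABHD5 lay on the side opposite to most of the glycerolipid genes without overlap, while that whole list had 8 positive and 10 negative values. The oxidation list had 1 higher and 1 lower by unadjusted p, and 1 higher and 2 lower without overlap (23.1%, below the 27.0% of all genes). ABHD5, the activator of the triglyceride lipase of lipid droplets, read 7.67, 7.73 and 7.64 on unexposed arrays and rose to between 7.97 and 8.09 on the exposed ones, a difference of 0.34 (SE 0.07, limma adjusted p = 0.0412). HSD17B4, an enzyme of peroxisomal fatty acid oxidation, rose from 7.73, 7.76 and 7.59 to 8.10, 8.10 and 8.02, a difference of 0.38 (SE 0.07, limma adjusted p = 0.0370). On the negative side GPAT3, which starts glycerolipid assembly, stood at -0.42 and the choline kinase CHKA at -0.43 (limma adjusted p = 0.0525 and 0.0660). CPT1A, the gate to mitochondrial oxidation, stood at -0.19 and HADH at -0.14 (limma adjusted p = 0.151 and 0.416), the latter -0.09 without exposed replicate 2. ACAT1, the mitochondrial counterpart of ACAT2, stood at -0.12 with an interval of -0.41 to 0.16, and it was 0.00836 without exposed replicate 2 and -0.20 without exposed replicate 1. The calls of ABHD5 and HSD17B4 were lost whichever array was left out, with limma adjusted p up to 0.144.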

How the data were processed

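The deposited table holds 1 log2 value per probe set and array, made by the authors with RMA (background correction, normalization between arrays, summary of probes); per the submitters' processing notes the tools were Affymetrix Expression Console 3.0 and Transcriptome Analysis Console 3.0, with further settings not given in the sources used here. RMA makes array distributions alike, so a change in total RNA per cell would not show. The table has no detection calls, and precision is limited by the number of arrays.

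Of 53617 probe sets, 16098 carried 1 gene symbol, 0 several and 37519 none in the platform annotation. All 14884 symbols were matched to RefSeq (GRCh38.p14), used for names and neighbours. A gene was represented by its probe set with the highest mean. All probe sets were fitted with limma 3.58.1 in R 4.3.3 (lmFit and trended eBayes, two-sided, no covariate), with Benjamini-Hochberg adjustment over genes at a threshold of 0.05, and intervals are 95%. The script was tested on simulated arrays. Figures used matplotlib 3.10.9.

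The 5 genes and the 6 lipid gene lists (166 entries, 97 measured) were chosen with earlier results of these data known. Genes named in each list are those past the threshold, or otherwise the 2 of smallest p in a direction, plus SREBF1, SREBF2, SCAP, INSIG2, HMGCS1, SQLE, FASN, SCD5, ACAT1 and SOAT2, and the 3 genes nearest in profile to each of the 5. Alternatives were the replicate number as a block, no trend, a filter on dim probe sets, renewed quantile normalization, centring on 65 ribosomal protein genes or on array medians, averaged probe sets, adjustment over all probe sets and leaving out each array.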

Additional observations from a re-analysis of the deposited data

How the results depend on the processing

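The differences of the 5 genes moved by less than the SD pooled over both groups under each alternative that could move them, and their sides were fixed by the choice of genes. The number of changed genes in limma, 456 as reported, was 753 over probe sets brighter than the median, 1173 with averaged probe sets, 162 when adjusted over all probe sets and 0 with an untrended variance (2220 by unadjusted p under 0.05). With the replicate number as a block it was 0 (2286 unadjusted). Deviations of same-numbered arrays from their group means correlated at -0.02, -0.03 and 0.01 over all probe sets, and those of other pairs at -0.02 to 0.04. Such values cannot tell whether same-numbered dishes were handled together, so pairing was not settled. With each array left out it ran from 0 to 325, being 0 without exposed replicate 1 or 2 or unexposed replicate 2 or 3, 67 without unexposed replicate 1 and 325 without exposed replicate 3. The glycerolipid count of 1 was 4 over brighter probe sets, 5 with averaged probe sets, 2 with renewed quantile normalization and 0 with the block, without a trend, with ribosomal centring or over all probe sets. The oxidation count of 1 was 0 with the block, without a trend and over all probe sets, and both counts ran from 0 to 0 with an array left out. The sterol synthesis count of 0 was 1 over brighter probe sets and 2 with averaged probe sets, that of SREBP control 1 in both, and that of uptake and transport 1 with averaged probe sets. Signs turned for SREBF1 (0.0121 with quantile normalization, 0.0606 with ribosomal centring), SCAP (0.0129) and SOAT2 (0.0511), the last pair with ribosomal centring. With an array left out SREBF1 ran from -0.0836 to 0.0445, SQLE from -0.0148 to 0.0983, SOAT2 from -0.111 to 0.0757, ACAT1 from -0.202 to 0.00836 and FASN from -0.158 to 0.00390. Ribosomal centring moved the median of all genes to 0.0818 and brought HMGCS1, MID1IP1, ACSL1, SP1, RNF139, GRAMD1A, CPT1A, HADH and ACAT1 to between -0.146 and -0.0391; GRAMD1A was -0.0783 with quantile normalization.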

Other observations

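Among genes of sterol transport chosen after their values were seen, CH25H, a cholesterol hydroxylase that makes an oxysterol, read 4.56, 4.69 and 4.94 on unexposed and 5.42, 5.12 and 5.11 on exposed arrays, a difference of 0.48 (SE 0.14, limma adjusted p = 0.115). STARD4, a soluble carrier of cholesterol, read 6.52, 6.31 and 6.49 on unexposed and 7.03, 6.76 and 6.66 on exposed arrays, a difference of 0.38 (SE 0.11, limma adjusted p = 0.124). Every exposed array was above every unexposed one for both genes, and neither passed.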
